A study of Mus musculus with 8 samples.

Results

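Adding trichostatin A (TSA) to neurosphere cells that were also exposed to 5-aza-2'-deoxycytidine (AzaC) was examined by setting the 2 arrays of cells given both compounds (AzaC/TSA) against the 2 arrays of cells given AzaC alone. These 4 arrays, of 8 in the series, were taken by their titles, and the change is the log2 signal of AzaC/TSA minus that of AzaC. They were matched by experiment number for the change within each experiment and for a fit with the experiment as a block. The main test did not use this matching. The AzaC/TSA cells received 500 nM AzaC and 150 nM TSA, and the AzaC cells 500 nM AzaC and no TSA. The other 4 arrays, from cells given 150 nM TSA alone and from untreated cells, enter only the shared estimate of the spread and the comparison of TSA with and without AzaC. Exposure lasted 2 days in all treated groups. Every group, untreated cells included, consisted of mouse neurospheres, free-floating cultures of neural stem and progenitor cells, grown from forebrains isolated one embryo at a time at embryonic day 14.5. All embryos carried a bcl2 transgene, which encodes a protein that restrains programmed cell death, and the promoter that drives it is not given in the sources used here. Each group had 1 array from each of 2 independent experiments, so each p-value rests on 2 arrays per group.

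TSA inhibits histone deacetylases, enzymes that remove acetyl groups from histone tails and from other proteins. Histones stay acetylated in its presence, and many cultured cells stop dividing. AzaC is a cytidine analogue that is built into DNA during replication and traps DNA methyltransferases, so that newly made DNA loses methylation. The comparison described here asks which transcripts changed when the histone deacetylase inhibitor was added to cells that were also exposed to the methyltransferase inhibitor.

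The signals are intensities, and all 8 arrays had the same trimmed mean of about 200.1. Median signals were 63.65 and 65.85 on the AzaC/TSA arrays and 72.7 and 67.6 on the AzaC arrays. The ratio of 5' to 3' actin control signals, a sign of RNA integrity, was 0.29 and 0.39 on the AzaC/TSA arrays and 0.471 and 0.398 on the AzaC arrays, and its part in the results was not tested. AzaC/TSA 1 and AzaC 1 correlated with r = 0.855 over 7987 probe sets and AzaC/TSA 2 and AzaC 2 with r = 0.875, against 0.903 between both AzaC/TSA arrays and 0.896 between both AzaC arrays. Of 10 neural progenitor markers on the array, 6 read 50 or more on all 4 arrays. Nes, the progenitor intermediate filament nestin, read 2007.7 and 2921.2 on the AzaC/TSA arrays and 2258.6 and 3003.1 on the AzaC arrays. Sox2, Notch1, Hes1 and Fabp7 were also at 290.2 or more on all 4. The probe sets of Vim and Msi1 read at most 45.1 and 55.0, near or under the detection limits used here. Hes5 read 93.8 and 36.8 on the AzaC/TSA arrays and 20.1 and 18.9 on the AzaC arrays, too dim to be tested. Prom1 read 181.2 and 75.1 on the AzaC/TSA arrays and 63.2 and 25.3 on the AzaC arrays. Markers of other cells were mixed. Aif1, Itgam and Cdh5 stayed under 10 on all 4 arrays, and Ptprc, the pan-leukocyte CD45, read 1.2 and 12.9 on the AzaC/TSA arrays and 1.5 and 17.7 on the AzaC arrays. Others were detected on all 4: the fibroblast collagen gene Col1a2 read 321.4 and 303.5 on the AzaC/TSA arrays and 366 and 457.3 on the AzaC arrays. The astrocyte aldolase gene Aldoc read 217.8 and 999.6 on the AzaC/TSA arrays and 496.6 and 3451.1 on the AzaC arrays. The haemoglobin gene Hba-a1 read 62.8 and 169.2 on the AzaC/TSA arrays and 115.6 and 93.4 on the AzaC arrays. A signal under 20 was treated as a floor, and where a group had an array there the change is given as "at least".

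Of 6011 genes tested, 191 (3.18%) passed an adjusted p of 0.05 in limma's test, 76 higher (1.26%) and 115 lower (1.91%) in AzaC/TSA cells. In probe sets these were 223 of 7987 (2.79%), 89 higher and 134 lower, and 12 of them had no gene name. All 223 had the same sign in experiments 1 and 2, their AzaC/TSA and AzaC signals did not overlap, and 222 changed more than 2-fold. Over all 6011 genes tested, 1882 were higher and 2217 lower in both experiments, and signals did not overlap in 48.2%. A shared sign or a lack of overlap alone thus sets few genes apart. The median rise had a log2 change of 2.08 and the median fall one of -2.62, against a median of -0.05 over all genes tested. With the experiment as a block, so that each AzaC/TSA array is set against its own AzaC array, the count was 618 genes (10.3%), 294 higher (4.89%) and 324 lower (5.39%), and in probe sets it was 744 (9.32%), which included all 223. Centring the arrays on their medians moved the median over all probe sets from -0.06 to 0.06 and the share of calls that were higher from 39.9% to 52.7%, so the split between rises and falls depends on the scaling. Leaving out 1 array lowered the number of calls in every case, and most when an AzaC/TSA or AzaC array was left out. Some of the calls in those fits were not among the 223.

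**Figure D1:**
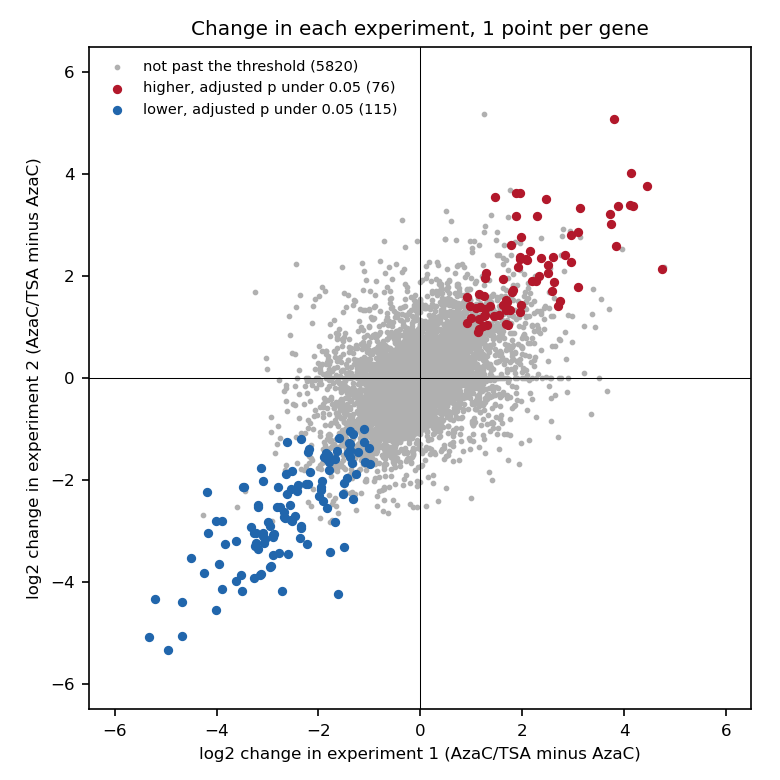
Log2 change of AzaC/TSA minus AzaC in experiment 1 (horizontal axis) and experiment 2 (vertical axis), with 1 point for each of 6011 genes. The 76 genes called higher (red) and 115 called lower (blue) lie in the quadrants where both experiments moved the same way.

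The 12 largest falls were all genes of mitosis or DNA replication, while the 12 largest rises came from several classes. Kif20a, a kinesin of the late mitotic spindle, gave signals of 18.6 and 27.5 in AzaC/TSA cells, against 806.3 and 928.5 in AzaC cells. Mki67, the proliferation antigen Ki-67 that coats mitotic chromosomes, gave 25.5 and 17.8 in AzaC/TSA cells, against 787 and 808.4 in AzaC cells. Top2a, the topoisomerase that untangles sister chromosomes, gave 5.3 and 23.9 in AzaC/TSA cells, against 513.1 and 801.4 in AzaC cells. All 3 thus lay well above detection on both AzaC arrays and at or near the floor on both AzaC/TSA arrays. The falls were at least 36.9-fold for Kif20a (log2 -5.20, SE 0.37, limma adjusted p = 0.000613), at least 35.3-fold for Mki67 (-5.14, SE 0.35, adjusted p = 0.000531) and at least 29.3-fold for Top2a (-4.87, SE 0.41, adjusted p = 0.00101). A second Kif20a probe set fell by 4.20 on the log2 scale. Fewer dividing cells and less of these RNAs per cell cannot be told apart in RNA from whole cultures.

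Among the 12 largest rises, Scg2, which encodes the secretory granule protein secretogranin II, gave 281.4 and 675.3 in AzaC/TSA cells, against 11.6 and 16.2 in AzaC cells, a rise of at least 21.8-fold (log2 4.45, SE 0.48, limma adjusted p = 0.00311). Igf2, the imprinted insulin-like growth factor, gave 651.7 and 354.6 in AzaC/TSA cells, against 29.9 and 25.9 in AzaC cells, a rise of 17.3-fold (4.11, SE 0.52, adjusted p = 0.00584). Clu, the secreted chaperone clusterin, gave 1055.6 and 1021.8 in AzaC/TSA cells, against 71.8 and 97.9 in AzaC cells, a rise of 12.4-fold (3.63, SE 0.28, adjusted p = 0.000621). Clu had the closest replicates of these 3, and its second probe set rose by 4.37. The remaining rises were Rnase4, a secreted ribonuclease, by at least 4.08, Chgb by 3.78, Snap25 by 3.76, the aldo-keto reductase Akr1b8 by 3.47, Txnip by 3.45, Fos by 3.38, Resp18 by 3.24, Egr2 by 3.21 and the late endosomal protein Cd68 by 3.0. Txnip, a binding partner of thioredoxin, varied most between experiments among these 12, with 1780.6 and 408.9 in AzaC/TSA cells and 66.4 and 92.2 in AzaC cells, and a second Txnip probe set changed by only -0.07 and did not pass. Igf2, Rnase4 and Snap25 lost the call without AzaC/TSA 1 or AzaC 2 (adjusted p 0.0516 to 0.0638). Chgb lost it without AzaC/TSA 1, AzaC 1 or AzaC 2 (0.0934 to 0.174), Txnip and Cd68 without 5 of the 8 arrays each (0.053 to 0.134), and Akr1b8 without any of 6 (0.0594 to 0.17).

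**Figure D2:**
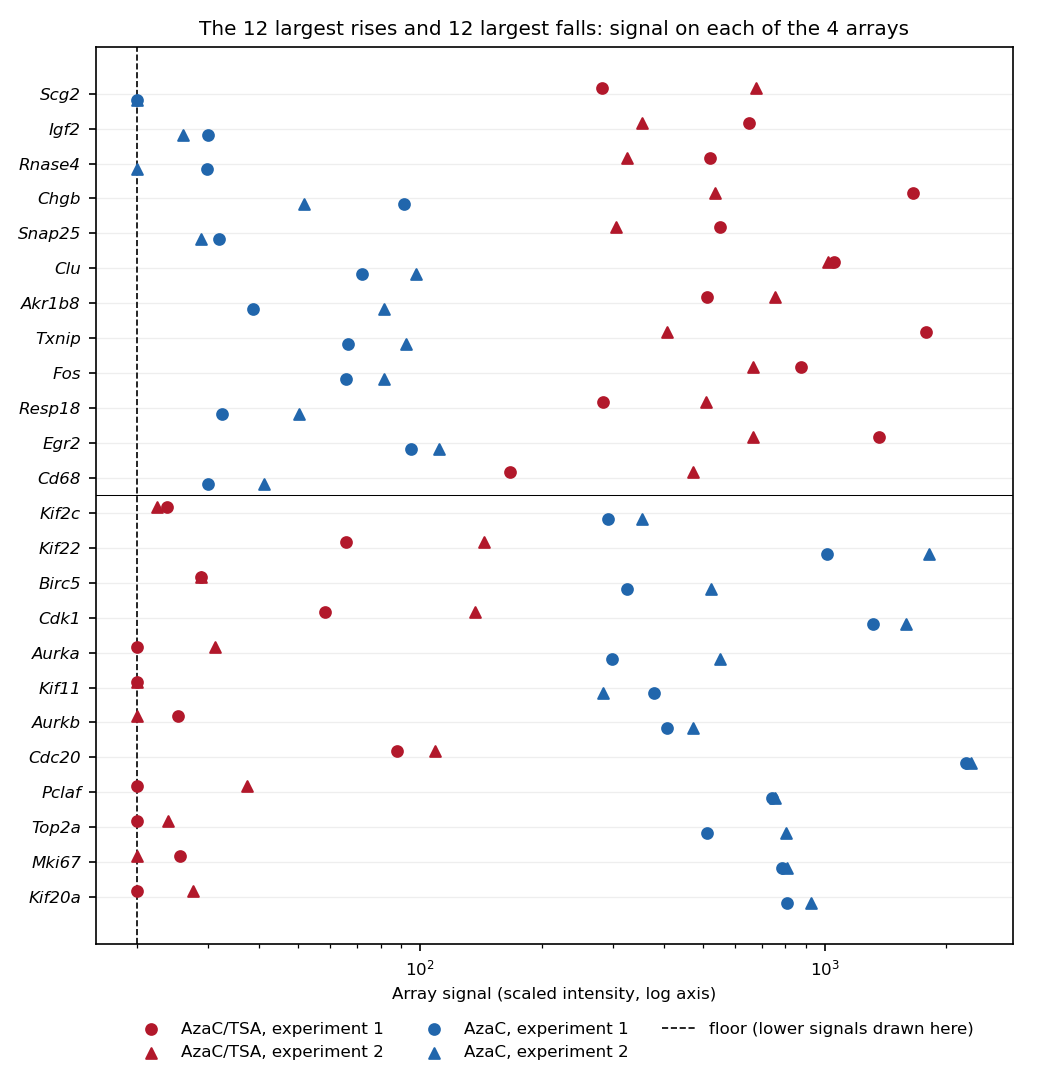
Signal on each of the 4 arrays (log axis) for the 12 largest rises (upper part) and 12 largest falls (lower part) among genes that passed, with AzaC/TSA in red and AzaC in blue, circles for experiment 1 and triangles for experiment 2. In each of the 24 genes both red points lie on the same side of both blue points, and signals under the dashed line at 20 are drawn on it.

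The regulators of mitosis fell together. Of 54 tested genes in 3 lists (kinases, cyclins with their partners and checkpoint proteins, and motors with spindle and kinetochore proteins), 36 fell and 0 rose, 52 were lower in both experiments, and the median log2 change was -2.81. With the experiment as a block 43 fell. The count was 15 without AzaC 2, 20 without AzaC/TSA 1, 21 without AzaC 1 and 28 without AzaC/TSA 2, and 15 genes passed whichever of the 8 arrays was left out. Of 11 kinases 8 fell, with a list median of -3.15. Cdk1, the kinase that drives entry into mitosis, gave 58.3 and 136.9 in AzaC/TSA cells, against 1317.3 and 1590.6 in AzaC cells, a fall of 16.2-fold (log2 -4.02, SE 0.45, limma adjusted p = 0.00346). Aurkb, the kinase of the chromosomal passenger complex, gave 25.2 and 12.7 in AzaC/TSA cells, against 408.8 and 473.2 in AzaC cells, a fall of at least 19.6-fold. Plk1, a kinase of spindle assembly, gave 83.9 and 100.6 in AzaC/TSA cells, against 692.7 and 900.5 in AzaC cells, and all 3 of its probe sets fell, by 2.85, 3.10 and 4.11. Each of these kinases was separated by a wide gap in both experiments. The spindle kinase Aurka fell by at least 4.02, and the checkpoint kinases Bub1 and Ttk fell by 3.15 and 2.80. Wee1, the kinase that holds Cdk1 inactive, did not pass, with 52.1 and 59.1 in AzaC/TSA cells and 93.9 and 76.8 in AzaC cells (-0.61, SE 0.39, adjusted p = 0.452). Nek2 (-2.30) and Chek1 (-1.35) passed only with the experiment as a block (adjusted p 0.00495 and 0.0325).

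Among 19 cyclins, anaphase-promoting complex (APC) regulators and checkpoint genes, 13 fell (16 with the block) and the median was -2.53. Cdc20, the activator of the APC that licenses chromosome separation, gave 87.8 and 108.7 in AzaC/TSA cells, against 2234.9 and 2300 in AzaC cells, a fall of 23.2-fold (log2 -4.54, SE 0.30, limma adjusted p = 0.000531). Ccnb2, a B-type cyclin partner of Cdk1, gave 80.4 and 91.6 in AzaC/TSA cells, against 759.7 and 902.7 in AzaC cells (-3.27, SE 0.33, adjusted p = 0.00218). Birc5, the passenger complex protein survivin, gave 28.7 and 28.8 in AzaC/TSA cells, against 324.7 and 524 in AzaC cells (-3.84, SE 0.43, adjusted p = 0.00343). The AzaC signals of Cdc20 and the AzaC/TSA signals of Birc5 were nearly equal in both experiments. The securin gene Pttg1 was less affected, with 739.7 and 728.8 in AzaC/TSA cells, against 1302.2 and 1660.2 in AzaC cells, and passed only with the block (-1.0, adjusted p = 0.0608, block adjusted p = 0.0189). Of 24 motor, spindle and kinetochore genes 15 fell (17 with the block), with a median of -2.74. The spindle-pole motor Kif11 read 2.1 and 2.8 in AzaC/TSA cells, against 378 and 283 in AzaC cells, so both AzaC/TSA arrays were far under the floor and the fall was at least 16.3-fold. Kif22 (-3.81), which moves chromosome arms, and Kif2c (-3.80), which depolymerises microtubules, fell alike. Smc2, a core subunit of condensin, gave 49.5 and 59.5 in AzaC/TSA cells, against 381.3 and 447.3 in AzaC cells (-2.93, SE 0.36, adjusted p = 0.00529). Among all 42 kinesin, dynein and tubulin genes, chosen by their names, 7 fell and 0 rose (8 and 2 with the block), and the median was -0.25, so the list as a whole lay much closer to 0 than its mitotic members.

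In dividing cells many mitotic genes are driven through CCAAT boxes, bound by the factor NF-Y, and through a cell cycle homology region (CHR, TTTGAA or TTCGAA), and in resting cells the DREAM complex holds them silent at the CHR. The promoters of 4 of the strongest falls are shown because they let these letters be seen beside the values above. Each window runs from 250 bases before to 30 bases after the annotated start, 280 bases from RefSeq on the GRCm38.p6 build, 5′ to 3′ on the strand of the gene. Capitals mark CCAAT or its reverse complement ATTGG, and the CHR letters on either strand (TTCGAA is its own reverse complement), and no match overlaps another in these windows. Cdc20 lies at chr4:118437314-118437593 on the minus strand, Mki67 at chr7:135716350-135716629 on the minus strand, Top2a at chr11:99024160-99024439 on the minus strand and Pclaf at chr9:65890073-65890352 on the plus strand.
Cdc20: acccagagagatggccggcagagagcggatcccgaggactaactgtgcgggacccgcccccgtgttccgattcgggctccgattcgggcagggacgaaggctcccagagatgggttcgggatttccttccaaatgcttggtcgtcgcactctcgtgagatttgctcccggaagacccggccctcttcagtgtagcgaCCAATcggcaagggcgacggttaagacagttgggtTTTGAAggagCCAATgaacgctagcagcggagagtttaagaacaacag
Mki67: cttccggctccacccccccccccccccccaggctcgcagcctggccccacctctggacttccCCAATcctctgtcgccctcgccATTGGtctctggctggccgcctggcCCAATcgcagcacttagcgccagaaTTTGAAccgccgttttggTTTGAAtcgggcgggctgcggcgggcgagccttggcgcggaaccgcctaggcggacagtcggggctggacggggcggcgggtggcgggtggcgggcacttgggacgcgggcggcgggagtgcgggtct
Top2a: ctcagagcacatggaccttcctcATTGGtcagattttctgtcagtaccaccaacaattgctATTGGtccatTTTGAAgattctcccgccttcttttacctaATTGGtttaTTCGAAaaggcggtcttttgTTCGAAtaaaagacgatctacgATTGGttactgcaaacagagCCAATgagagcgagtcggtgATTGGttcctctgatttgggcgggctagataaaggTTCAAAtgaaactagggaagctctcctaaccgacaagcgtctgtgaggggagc
Pclaf: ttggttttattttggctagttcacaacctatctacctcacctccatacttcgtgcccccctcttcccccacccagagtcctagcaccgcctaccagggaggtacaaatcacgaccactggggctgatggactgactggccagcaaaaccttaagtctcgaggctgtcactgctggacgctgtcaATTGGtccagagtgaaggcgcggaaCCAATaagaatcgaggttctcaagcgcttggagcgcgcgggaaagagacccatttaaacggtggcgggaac

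In the Cdc20 window a TTTGAA lay 18 bases before the start between CCAAT boxes at 53 and 8. The Mki67 window held TTTGAA at 116 and 98 bases before the start and CCAAT boxes at 188, 166 and 141. The Top2a window held 6 CCAAT boxes and 4 CHR matches, the nearest 23 bases before the start. The Pclaf window, of a replication gene, held CCAAT boxes at 66 and 41 bases and no CHR letters. Of the 45 tested mitotic genes with a window, 27 (60.0%) held a CHR match and 30 (66.7%) a CCAAT box, and 23 (51.1%) held both. Over the 4868 genes tested that had a window the shares were 13.4% for CHR, 38.2% for CCAAT and 5.71% for both, and over all 27025 windows they were 18.6%, 36.6% and 7.07%. Among the 30 mitotic genes with a window that fell, 21 (70.0%) held a CHR match. Replication genes showed the CCAAT share without the CHR share, at 64.5% and 19.4% of 31. A match describes these letters on either strand and is not a measured site, and the absence of a match covers only these letters in this window.

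Genes of DNA replication fell in part. Of 35 tested licensing and fork genes 14 fell and 0 rose, with a median of -1.73, and with the experiment as a block 23 fell. Single arrays weighed heavily here: the count was 1 without AzaC 2, 3 without AzaC/TSA 1, 4 without AzaC 1 and 6 without AzaC/TSA 2, and Pclaf alone passed in every such setting. Pclaf, the PCNA clamp-associated factor, gave 15.8 and 37.4 in AzaC/TSA cells, against 739.7 and 753.8 in AzaC cells, a fall of at least 27.3-fold (log2 -4.77, SE 0.37, limma adjusted p = 0.000657), and a second, weaker Pclaf probe set did not pass (-1.21). Lig1, the ligase that joins Okazaki fragments, gave 40 and 29.1 in AzaC/TSA cells, against 350 and 418.8 in AzaC cells (-3.49, SE 0.50, adjusted p = 0.00974). Mcm4, a subunit of the replicative helicase, gave 44 and 92.8 in AzaC/TSA cells, against 442.5 and 703 in AzaC cells (-3.13, SE 0.45, adjusted p = 0.00959). The groups were far apart in these genes, with the AzaC/TSA 2 signal above AzaC/TSA 1 in Pclaf and Mcm4. Lig1 lost its call without AzaC/TSA 2, AzaC 1 or AzaC 2 (0.0535 to 0.0816) and Mcm4 without AzaC/TSA 1 or AzaC 2 (0.0546 and 0.0834). Mcm5 also fell by 3.13 but lost the call without AzaC 2 (0.053), and its second probe set, at -0.08, did not pass. Pcna, the sliding clamp, gave 389.2 and 944.1 in AzaC/TSA cells, against 1852.1 and 3135.2 in AzaC cells, and passed only with the block (-1.99, adjusted p = 0.0626, block adjusted p = 0.000715).

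Of 15 genes of nucleotide supply, 3 fell and 0 rose (7 with the block), with a median of -0.85. Rrm2, the regulated subunit of ribonucleotide reductase, gave 94.7 and 110.6 in AzaC/TSA cells, against 706.4 and 957.5 in AzaC cells, a fall of 8.04-fold (log2 -3.01, SE 0.30, limma adjusted p = 0.00209). Its partner Rrm1 gave 120.3 and 151.1 in AzaC/TSA cells, against 846.2 and 872.2 in AzaC cells (-2.67, SE 0.32, adjusted p = 0.00507). The thymidine kinase Tk1, which salvages thymidine, gave 71.6 and 61 in AzaC/TSA cells, against 470 and 1110.1 in AzaC cells (-3.45, SE 0.48, adjusted p = 0.0086). Both ribonucleotide reductase subunits and Tk1 were thus low in both AzaC/TSA cultures, and Tk1 alone of the 3 lost the call when AzaC/TSA 2 or AzaC 2 was left out (0.0512 and 0.062). Of 14 histone genes 2 fell (1 or 2 with an array left out), with a median of -0.66. H2ax, the histone variant phosphorylated at DNA breaks, gave 307.2 and 244 in AzaC/TSA cells, against 1949.7 and 1507.6 in AzaC cells (-2.65, SE 0.26, adjusted p = 0.00209). The other was Cenpa, the histone H3 variant of centromeres (-2.56). H3c14, a replication-dependent histone H3 gene, lay on the other side with 851.1 and 662.3 in AzaC/TSA cells and 365.2 and 166 in AzaC cells, and passed only with the block (1.61, adjusted p = 0.108, block adjusted p = 0.0226).

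Regulators of the G1 phase, which decide whether a cell enters replication, showed few calls. Of 29 tested, 1 rose and 1 fell (5 and 3 with the block), against 1.26% and 1.91% of all genes tested, and the median was 0.40. Btg1, an antiproliferative gene, gave 644 and 607.7 in AzaC/TSA cells, against 98.8 and 228.1 in AzaC cells (log2 2.06, SE 0.40, limma adjusted p = 0.0349). Rbl1, the retinoblastoma-related pocket protein p107, gave 77.3 and 82.4 in AzaC/TSA cells, against 217.3 and 345.9 in AzaC cells (-1.78, SE 0.36, adjusted p = 0.0398). Both calls were lost without most single arrays, with adjusted p up to 0.153 for Btg1 and 0.194 for Rbl1. Cdkn1a, the cyclin-dependent kinase inhibitor p21, gave 2236.8 and 1507.5 in AzaC/TSA cells and 1372.1 and 1074.1 in AzaC cells, a change of 0.60 that did not pass with or without the block (adjusted p = 0.423 and 0.0893). Cdkn1b, the related inhibitor p27, overlapped between groups, with 131.2 and 57.7 in AzaC/TSA cells and 89.9 and 48.1 in AzaC cells. Of the D cyclins, Ccnd2 gave 2332.8 and 1809.1 in AzaC/TSA cells and 887.1 and 729.4 in AzaC cells (1.35, adjusted p = 0.0795, block adjusted p = 0.0122), while Ccnd1 gave 706.8 and 2596.9 in AzaC/TSA cells and 4530.3 and 3101.7 in AzaC cells (-1.47, adjusted p = 0.252). The Ccnd1 difference came mostly from experiment 1 (-2.68) rather than experiment 2 (-0.26).

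Genes of DNA methylation, the process that AzaC targets, fell in part when TSA was added. Of 10 tested genes of DNA methylation and methyl-CpG binding, 4 fell and 0 rose, with a median of -1.01. Uhrf1, which brings the maintenance methyltransferase to replicating DNA, gave 48.5 and 96.4 in AzaC/TSA cells, against 412.7 and 788.9 in AzaC cells, a fall of 8.35-fold (log2 -3.06, SE 0.45, limma adjusted p = 0.00997). Dnmt1, the maintenance methyltransferase itself, gave 187.5 and 228.7 in AzaC/TSA cells, against 663.9 and 648.5 in AzaC cells, a fall of 3.17-fold (-1.66, SE 0.30, adjusted p = 0.0267). Ahcy, which clears the by-product of methylation reactions, gave 249.2 and 182.7 in AzaC/TSA cells, against 854.4 and 1952.2 in AzaC cells (-2.60, SE 0.48, adjusted p = 0.027). Dnmt1 was even across experiments, while AzaC 2 was far above AzaC 1 for Ahcy. Mbd3, a subunit of the NuRD repressor, fell by 1.40 (adjusted p = 0.0292). Dnmt3a, a methyltransferase that acts without a template, overlapped between groups, with 92.7 and 66.6 in AzaC/TSA cells and 116 and 82.5 in AzaC cells (-0.32, adjusted p = 0.857). The count of this list was 1 without AzaC/TSA 2, 2 without AzaC 1 and 0 without AzaC/TSA 1 or AzaC 2, and the calls of Uhrf1, Dnmt1, Ahcy and Mbd3 had adjusted p of 0.0657 to 0.141 in these last settings.

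None of 23 histone deacetylase and acetyltransferase genes passed in limma's test, with or without the block (2 had an unadjusted p under 0.05), and their median was 0.13. Hdac1, a deacetylase that TSA inhibits, gave 634.9 and 910.3 in AzaC/TSA cells and 611.6 and 667.2 in AzaC cells (log2 0.25, SE 0.26, adjusted p = 0.668). Hdac2, its close relative, gave 609 and 574.8 in AzaC/TSA cells and 647.5 and 545.6 in AzaC cells (-0.01, SE 0.25, adjusted p = 0.991). Signals of both overlapped between groups. Of 29 chromatin repressor and remodeller genes 3 fell and 0 rose (8 with the block), with a median of -0.22. Hmgb2, a DNA-bending protein abundant in dividing cells, gave 35.3 and 97.1 in AzaC/TSA cells, against 321.3 and 564.3 in AzaC cells (-2.86, SE 0.51, adjusted p = 0.0254). Its relative Hmgb3 also fell. Trim28, the corepressor KAP1 of zinc-finger proteins, gave 1205.3 and 1008.4 in AzaC/TSA cells, against 2811.4 and 2764.1 in AzaC cells (-1.34, SE 0.26, adjusted p = 0.034). The Trim28 arrays agreed closely within each group. The methyltransferase gene Ezh2, of the Polycomb complex, passed only with the block (-1.28, adjusted p = 0.0745, block adjusted p = 0.0184). Without AzaC/TSA 1, AzaC 1 or AzaC 2 the 3 calls were lost (0.0595 to 0.144), and that of Trim28 also without AzaC/TSA 2 (0.148) or either TSA array (0.0621 and 0.0632).

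Lysosomal genes rose in part. Of 37 tested, 7 rose and 0 fell, and the median was 0.88. A log2 change above 0 was found in 30, against 2835 of 6011 over all genes tested. With the experiment as a block 18 rose, against 4.89% of all genes tested. The count was 2 to 4 with 1 array left out, lowest without AzaC/TSA 2 or AzaC 2, and Ctsd and Grn passed in every such setting. Grn, the progranulin precursor of granulins that act in lysosomes, gave 3146.3 and 4168.1 in AzaC/TSA cells, against 706.7 and 741.5 in AzaC cells, a rise of 5.00-fold (2.32, SE 0.25, limma adjusted p = 0.00301). Ctsd, the aspartic protease cathepsin D, gave 8387.2 and 6228.4 in AzaC/TSA cells, against 1828.6 and 1671.9 in AzaC cells, a rise of 4.13-fold (2.05, SE 0.23, adjusted p = 0.00343). Atp6v0d1, a subunit of the proton pump that acidifies lysosomes, gave 2097.4 and 2529.3 in AzaC/TSA cells, against 855.9 and 601.7 in AzaC cells (1.68, SE 0.26, adjusted p = 0.0127). These genes were already bright in AzaC cells, so their changes do not rest on signals near the floor. A second, dimmer Grn probe set did not pass (-0.46), and Atp6v0d1 lost the call without AzaC/TSA 1, AzaC/TSA 2 or AzaC 2 (0.0545 to 0.0849). The protease Lgmn rose by 1.44 (0.0537 to 0.13 without any of 6 arrays), the glucosidase Gaa by 1.16 and the membrane protein Lamp2 by 1.20. Lamp1, another membrane protein, gave 12821.7 and 10139.4 in AzaC/TSA cells, against 7067.1 and 4503.8 in AzaC cells, and passed only with the block (1.02, adjusted p = 0.0899, block adjusted p = 0.0126), as did Ctsb (1.08, adjusted p = 0.0519, block adjusted p = 0.0107). Gusb (-1.03) and Ids (-0.62), hydrolases of glycosaminoglycans, lay lowest and did not pass. Outside the list, and chosen after their values were seen, the pump subunits Atp6v1d (1.25) and Atp6v1b2 (1.28), the peptidase Dpp7 (2.49) and the fucosidase Fuca1 (1.40) rose too.

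**Figure D3:**
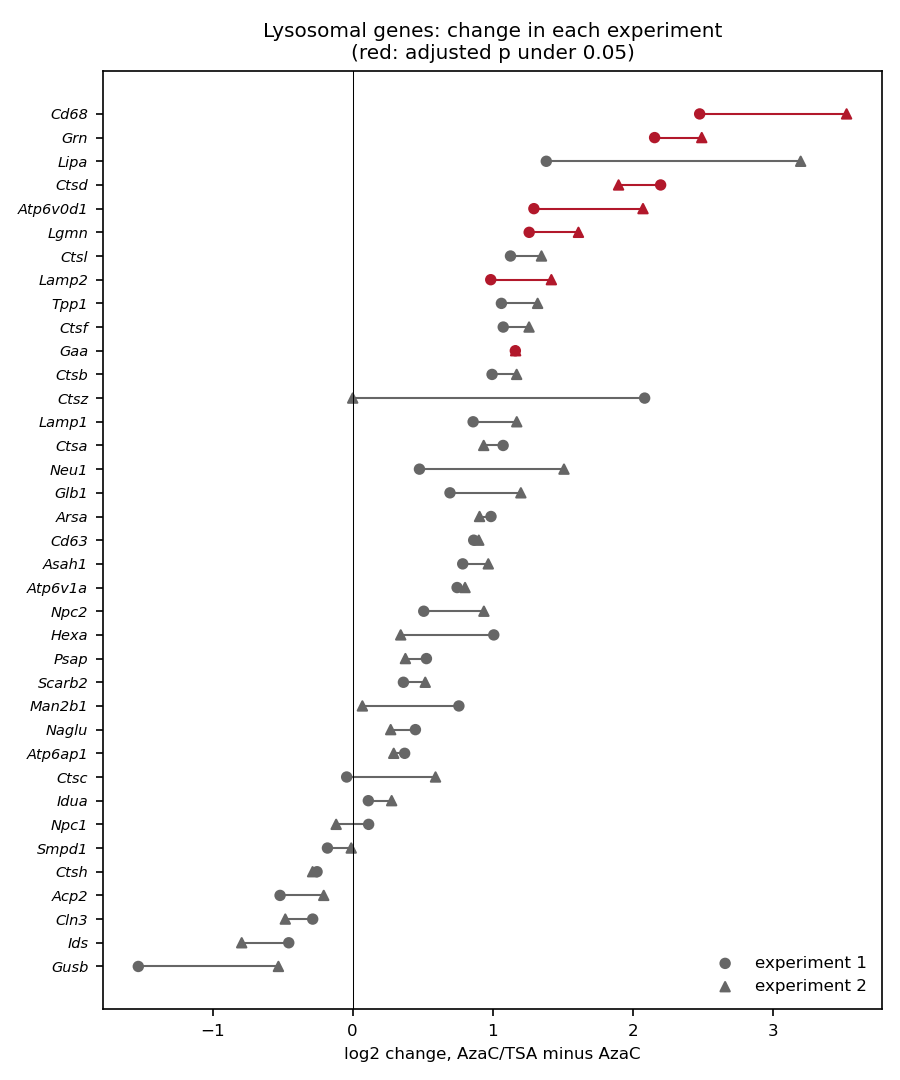
Log2 change of AzaC/TSA minus AzaC in experiment 1 (circles) and experiment 2 (triangles) for the 37 lysosomal genes tested, ordered by their mean change, with the 7 that passed in red. Changes range from -1.03 for Gusb to 3.0 for Cd68, and 30 of 37 genes had a mean change above 0, against 2835 of 6011 over all genes tested.

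Many lysosomal genes are known targets of the factors TFEB and TFE3, which bind the palindrome CACGTG within a longer element. Ctsd and Grn passed whichever array was left out. Only the Ctsd promoter is shown, because its window holds CACGTG (in capitals) and the Grn window does not. The window is of the same kind, on GRCm38.p6 (RefSeq) at chr7:142387798-142388077 on the minus strand.
Ctsd: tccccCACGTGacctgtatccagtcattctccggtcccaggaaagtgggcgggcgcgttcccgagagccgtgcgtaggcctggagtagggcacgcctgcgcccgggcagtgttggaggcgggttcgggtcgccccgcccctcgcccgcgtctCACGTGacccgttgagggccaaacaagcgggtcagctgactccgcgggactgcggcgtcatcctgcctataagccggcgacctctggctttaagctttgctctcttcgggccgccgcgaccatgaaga

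CACGTG, which reads the same on both strands, lay 245 and 98 bases before the Ctsd start, and the Grn window had none. It was present in 10 of 33 lysosomal genes with a window (30.3%) and in 3 of the 7 that rose (42.9%), against 10.7% of genes tested and 6.89% of all windows. This motif was searched after the values were seen.

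Several transcripts of regulated secretion rose. Of 14 secretory granule genes 4 rose and 0 fell, with a median of 1.09: Scg2, given above, Chgb, Resp18 and Chga. Chgb, the granule protein chromogranin B, gave 1651.6 and 536.9 in AzaC/TSA cells, against 91.4 and 51.6 in AzaC cells, a rise of 13.7-fold (log2 3.78, SE 0.73, limma adjusted p = 0.034). Resp18, an endocrine granule protein, gave 283.8 and 508 in AzaC/TSA cells, against 32.4 and 50.1 in AzaC cells (3.24, SE 0.40, adjusted p = 0.00529). Chga, chromogranin A, gave 564.7 and 624.9 in AzaC/TSA cells, against 66.4 and 181.6 in AzaC cells (2.44, SE 0.44, adjusted p = 0.0259). Experiment 1 gave the higher Chgb signals in both groups, and the groups did not overlap in these genes. Scg2 and Resp18 passed whichever array was left out, whereas Chgb lost the call without AzaC/TSA 1, AzaC 1 or AzaC 2 (0.0934 to 0.174) and Chga without any of 6 arrays (0.0504 to 0.117). Scg3 (1.09) and Pcsk1n (2.30) passed only with the block (0.0452 and 0.013), and the neuropeptide precursor Penk, at -1.12, did not pass.

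Of 18 synaptic genes 1 rose, with a median of 0.27, and 3 rose with the block. Snap25, a membrane fusion protein of synaptic vesicles, gave 550.8 and 304.5 in AzaC/TSA cells, against 31.8 and 28.8 in AzaC cells, a rise of 13.5-fold (log2 3.76, SE 0.49, limma adjusted p = 0.00639) whose p was 0.0598 without AzaC/TSA 1 and 0.053 without AzaC 2. Its fusion partner Stx1a (at least 2.01, adjusted p = 0.0577, block adjusted p = 0.0293) and the vesicle endocytosis gene Dnm1 (1.86, adjusted p = 0.0563, block adjusted p = 0.0124) passed only with the block. Syp, the vesicle protein synaptophysin, gave 85.8 and 79.2 in AzaC/TSA cells and 32.1 and 50.1 in AzaC cells and did not pass (1.04, adjusted p = 0.263). Of 22 genes of neuronal cytoskeleton and identity 1 rose (6 with the block), with a median of 0.60. That gene was Ncam1, a neural adhesion molecule, with 3168.2 and 1382.1 in AzaC/TSA cells, against 527.7 and 419.9 in AzaC cells (2.15, SE 0.42, adjusted p = 0.0351, and 0.0645 to 0.158 without any of 5 arrays). The pan-neuronal tubulin Tubb3 gave 1486.3 and 834.1 in AzaC/TSA cells and 1634.6 and 2376 in AzaC cells (-0.82, adjusted p = 0.211), and a second Tubb3 probe set lay at 1.26, so its direction is unsettled. Map2, a dendrite marker, overlapped between groups (-0.92, adjusted p = 0.525). Mapt (0.93) and Stmn2 (1.54), an axonal microtubule protein and a growth cone protein, passed only with the block (0.0275 and 0.0344).

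Progenitor and glial identity genes gave few calls. Of 29 neural stem and progenitor genes 0 passed in limma's test (3 had an unadjusted p under 0.05), their median was -0.08 (0.03 with median centring), and with the block 1 rose and 2 fell. Nes, with the signals given above, changed by -0.10 (SE 0.34, adjusted p = 0.904). Sox2, a factor that maintains neural stem cells, gave 4830.5 and 2819 in AzaC/TSA cells and 3324.2 and 3120 in AzaC cells (log2 0.20, SE 0.30, adjusted p = 0.791). Among the 223 called probe sets 222 changed more than 2-fold, so a smaller change in either gene would rarely have passed. Fabp7, the radial glial lipid-binding protein, gave 5499.6 and 3035.9 in AzaC/TSA cells, against 10572.9 and 7830.3 in AzaC cells, and passed only with the block (-1.15, adjusted p = 0.197, block adjusted p = 0.0415). Id1, a factor that restrains differentiation, was the block's rise (1.11, adjusted p = 0.123, block adjusted p = 0.0476). Of 13 astrocyte genes Clu alone rose and 0 fell, with a median of -0.21, and 2 fell with the block, Aldoc (-1.49) and Sparcl1 (-2.10). Gfap, the intermediate filament of mature astrocytes, stayed between 46.0 and 66.7 on all 4 arrays and overlapped between groups. The 6 oligodendrocyte genes gave 0 calls, also 0 at an unadjusted p under 0.05, with a median of -0.14 (0.02 with quantile normalization).

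Immediate early genes, which code for quickly induced transcription factors and RNA regulators, rose in part. Of 28 tested 6 rose and 0 fell, with a median of 0.81, and 10 rose with the block. The count was 2 without AzaC/TSA 1 or AzaC 2, 3 without AzaC/TSA 2 and 4 without AzaC 1 or either untreated array, and Fos and Egr2 passed in each of these. Fos, an AP-1 subunit, gave 877.1 and 664.7 in AzaC/TSA cells, against 65.6 and 81.6 in AzaC cells, a rise of 10.4-fold (log2 3.38, SE 0.36, limma adjusted p = 0.00277). Egr2, a zinc-finger factor, gave 1364.5 and 667.4 in AzaC/TSA cells, against 95.2 and 111.3 in AzaC cells, a rise of 9.27-fold (3.21, SE 0.41, adjusted p = 0.00584). Egr1, its relative, gave 4670.4 and 1958.6 in AzaC/TSA cells, against 652.2 and 367.4 in AzaC cells (2.63, SE 0.42, adjusted p = 0.0155). The 3 genes were high in both AzaC/TSA cultures, and of the 4 arrays AzaC/TSA 1 was the highest for both Egr genes. Ier2 rose by 1.79, the AP-1 gene Junb by 2.36, and Zfp36, whose product speeds decay of messenger RNAs, by 2.13. The rise was not shared by the whole group: Jun (0.79), Myc (-0.31), Atf3 (-0.80), Nr4a1 (-0.89) and Maff (-0.97) did not pass. Without AzaC/TSA 1 or AzaC 2 Egr1 and Ier2 lost the call (0.0753 to 0.0982), as did Ier2 without AzaC/TSA 2 (0.0621).

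Of 40 metallothionein, oxidative stress and endoplasmic reticulum stress genes 5 rose and 1 fell (8 and 3 with the block), with a median of 0.42. Sat1, which acetylates polyamines for export, gave 2223.4 and 2227.6 in AzaC/TSA cells, against 456.2 and 246.3 in AzaC cells (log2 2.73, SE 0.46, limma adjusted p = 0.0195). Gstp1, a glutathione transferase, gave 5057 and 10514.7 in AzaC/TSA cells, against 1840.6 and 893.7 in AzaC cells (2.51, SE 0.48, adjusted p = 0.0327). Gclc, which starts glutathione synthesis, gave 572.8 and 745.6 in AzaC/TSA cells, against 163.5 and 232.2 in AzaC cells (1.75, SE 0.33, adjusted p = 0.0324). Of the 4 arrays, Gstp1 was highest in AzaC/TSA 2 and lowest in AzaC 2. The other rises were Txnip and Akr1b8, given above, and the peroxiredoxin Prdx2 fell by 1.05, a call that median centring removed. The metallothioneins, which bind zinc and copper, were among the brightest probe sets: Mt1 gave 18497.8 and 12380.9 in AzaC/TSA cells, against 5219.1 and 3496.8 in AzaC cells, and passed only with the block (1.82, adjusted p = 0.0605, block adjusted p = 0.00171). Mt2 gave 20068.5 and 11121.4 in AzaC/TSA cells, against 4918 and 2706.7 in AzaC cells (2.03, adjusted p = 0.0731, block adjusted p = 0.00067). Sat1 lost the call without AzaC/TSA 1, AzaC/TSA 2 or AzaC 2 (0.0865 to 0.11), and Gstp1 and Gclc without any of 6 arrays (0.0523 to 0.158). In Mt1 and Mt2 the changes of the experiments were alike (1.83 and 1.82 for Mt1, 2.03 and 2.04 for Mt2) while levels were higher in experiment 1. Mt3, the brain metallothionein, gave 5242.4 and 8786.8 in AzaC/TSA cells and 3704.3 and 910 in AzaC cells, with changes of 0.50 in experiment 1 and 3.27 in experiment 2, and did not pass (1.89, adjusted p = 0.186, block adjusted p = 0.0829). The count of this list was 0 without AzaC 2 and 1 without AzaC/TSA 1, AzaC/TSA 2 or AzaC 1. None of 34 heat shock and chaperone genes passed (8 had an unadjusted p under 0.05, and 2 rose and 1 fell with the block), and their median was 0.17.

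Cholesterol synthesis genes fell in part. Of 17 tested 4 fell and 0 rose (7 with the block), with a median of -0.88. Idi1, an isomerase that supplies isoprenoid units, gave 301.2 and 326.9 in AzaC/TSA cells, against 1878.7 and 1207.6 in AzaC cells, a fall of 4.80-fold (log2 -2.26, SE 0.27, limma adjusted p = 0.00507). Fdps, which makes farnesyl diphosphate, gave 609.7 and 869.7 in AzaC/TSA cells, against 3750 and 2067.6 in AzaC cells (-1.94, SE 0.39, adjusted p = 0.0369). Hmgcs1, the enzyme one step before HMG-CoA reductase, gave 521.3 and 348.6 in AzaC/TSA cells, against 1820.3 and 988.7 in AzaC cells (-1.65, SE 0.34, adjusted p = 0.0417). Of the 4 arrays, AzaC 1 was the highest in all 3. Cyp51, which removes a methyl group from lanosterol, fell by 1.82 (adjusted p = 0.0311), whereas the last-step enzyme Dhcr7 overlapped between groups (0.22, adjusted p = 0.827). Idi1 passed without any one array, while Fdps, Hmgcs1 and Cyp51 lost the call without each AzaC/TSA, AzaC or untreated array. Hmgcs1 also lost it without either TSA array. Of 28 glycolysis and hypoxia genes 1 fell (8 with the block), with a median of -0.32. Ldha, which makes lactate, gave 1729.7 and 2308.7 in AzaC/TSA cells, against 6217.3 and 6371.2 in AzaC cells (-1.66, SE 0.34, adjusted p = 0.0429), and it lost the call without any of 6 arrays (0.0755 to 0.198) and with median centring. Pygm, the muscle-type glycogen phosphorylase, gave 29.4 and 6.2 in AzaC/TSA cells, against 568.4 and 129.2 in AzaC cells, and passed only with the block (at least -3.48, adjusted p = 0.0598, block adjusted p = 0.00691).

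Genes of antigen presentation and interferon response gave 2 rises among 21 tested and 0 falls (7 and 1 with the block), with a median of 0.50, and the rises were H2-Ab1 and H2-Eb1. H2-Ab1, a class II beta chain that presents peptides to helper T cells, gave 172.3 and 145.2 in AzaC/TSA cells, against 11 and 11.3 in AzaC cells (at least 2.98 on the log2 scale, SE 0.59, limma adjusted p = 0.036). H2-Eb1, another class II beta chain, gave 112.9 and 118 in AzaC/TSA cells, against 21.9 and 23.1 in AzaC cells (2.36, SE 0.51, adjusted p = 0.0469). Both were at or near the floor in AzaC cells, and both lost the call without any of 6 arrays (0.0615 to 0.176). The class II alpha chain H2-Aa (6.4 and 11.4 in AzaC/TSA cells, 6.7 and 14 in AzaC cells) and the invariant chain Cd74 (37.9 and 47.9 in AzaC/TSA cells, 50.6 and 35.5 in AzaC cells) were too dim to be tested. Class I genes H2-K1 (1.27) and H2-D1 (2.10), and their light chain B2m (1.23), passed only with the block (0.0463, 0.0404 and 0.0412), and those of H2-D1 and B2m differed widely between the AzaC arrays, with 850.2 and 2965.2 for B2m. Of 19 imprinted genes Igf2 alone rose and 0 fell, with a median of -0.02 (0.04 with quantile normalization), and with the block 2 fell, Mest (-0.89, block adjusted p = 0.0354) and Gnas (-0.67, block adjusted p = 0.0486). Of 30 germ line genes on the array 23 were too dim to be tested, and 0 of the 7 tested passed, also at an unadjusted p under 0.05. No p53 target or apoptosis gene passed among 29, with a median of 0.05 (8 had an unadjusted p under 0.05, and 2 rose and 2 fell with the block). Bcl2, whose transgene all cells carried, gave 160.5 and 264.3 in AzaC/TSA cells and 99 and 126.4 in AzaC cells (0.88, SE 0.42, adjusted p = 0.314), and the files do not tell whether its probe set reads the transgene.

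Markers of cells other than the neural lineage moved in single genes, and many were too dim to be tested. These were 21 of 36 blood, 14 of 19 microglia and macrophage, 13 of 16 endothelial and 15 of 34 muscle genes on the array. Of 15 blood cell genes 2 rose and 1 fell, with a median of 0.62: Lcn2, a neutrophil and stress protein, by at least 2.80, Gp1bb, a platelet glycoprotein, by at least 2.62, and Cd4, described below. Lcn2 read 100.2 and 248.9 in AzaC/TSA cells, against 25.8 and 4.8 in AzaC cells, and its second probe set did not pass (-0.36). Lcn2 lost the call without any of 7 arrays and Gp1bb without any of 6 (0.0507 to 0.178). The defining gene Ptprc stayed under the floor on all 4 arrays, while Cd34 (95 and 18.3 in AzaC/TSA cells, 40.2 and 5.9 in AzaC cells) and Kit (43.4 and 11.1 in AzaC/TSA cells, 87.1 and 18.5 in AzaC cells) overlapped between groups. Of 5 microglia and macrophage genes tested Cd68 alone rose, with 166.9 and 474.1 in AzaC/TSA cells, against 30 and 41.2 in AzaC cells. The summed signal of the 6 microglial markers was 225.1 and 550.1 in AzaC/TSA cells and 139.5 and 151.2 in AzaC cells, and Cd68 made up most of it in AzaC/TSA cells. Csf1r, a macrophage growth factor receptor, lay on the other side with 7.8 and 42.2 in AzaC/TSA cells and 67.5 and 77.9 in AzaC cells and did not pass, and Aif1 and Itgam were under the floor on all 4 arrays. Of 11 fibroblast genes Igf2 alone rose, with a median of 0.41, the matrix gene Fbln2 passed only with the block (2.59, adjusted p = 0.0977, block adjusted p = 0.00284), and 0 of 3 endothelial and 0 of 19 muscle genes passed (1 and 2 had an unadjusted p under 0.05), with 1 muscle gene, Pygm, falling under the block. None of 39 annexin, S100 and actin-binding genes passed without the block (12 had an unadjusted p under 0.05), but 9 rose with it and the median was 0.54. Gsn, the actin-severing protein gelsolin, gave 663.8 and 738.1 in AzaC/TSA cells, against 42.6 and 127.2 in AzaC cells (3.25, SE 0.90, limma adjusted p = 0.0975, block adjusted p = 0.0371). Of 41 extracellular matrix and integrin genes 0 passed without the block (6 had an unadjusted p under 0.05), with a median of 0.53, and with the block the integrins Itgb1 (0.96) and Itgb5 (2.55, and 0.07 in a second probe set) and the protease inhibitor Timp1 (1.80) rose and the brain proteoglycan Bcan (-1.50) fell.

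Large housekeeping families differed in how far they moved. Over all genes tested 1.26% rose and 1.91% fell, and 4.89% and 5.39% did so with the experiment as a block. None of 25 ribosomal protein genes passed with or without the block, nor at an unadjusted p under 0.05 (median -0.11, and 0.01 with median centring). None of 34 proteasome genes passed (median -0.02, and 0.09 with median centring), where 5 had an unadjusted p under 0.05 and the block gave 1 rise, Psmd12 (0.80), and 1 fall, Psmb10 (-1.74). Of 65 splicing factor genes 2 fell and 0 rose (15 and 1 with the block), with a median of -0.46. As a class they leaned lower: 54 lay below 0 and 46 were lower in both experiments, against 2217 of 6011 genes tested. Hnrnph1, a splicing regulator, gave 213.9 and 209.3 in AzaC/TSA cells, against 843.7 and 1041.8 in AzaC cells (log2 -2.15, SE 0.26, limma adjusted p = 0.00507). Srsf2, a serine and arginine rich splicing factor, gave 774 and 769.6 in AzaC/TSA cells, against 2667.1 and 2707 in AzaC cells (-1.80, SE 0.25, adjusted p = 0.00764), and its second probe set fell by 1.99. Replicates of both genes nearly coincided in AzaC/TSA cells. Without AzaC 2 both calls were lost (0.0515 for Hnrnph1 and 0.062 for Srsf2), and Srsf2 was also lost without AzaC/TSA 1 or AzaC 1 (0.0545 and 0.0523). Of 70 respiratory chain genes 42 were lower in both experiments. Among these 70 genes 1 fell, Uqcrb by 1.44, with a median of -0.34 and 7 falls and 2 rises with the block. That call had an adjusted p of 0.0496 and was lost without any single array. Among 92 solute carriers 1 rose, Slc7a7 by at least 2.20 (lost without any single array), with 2 rises and 2 falls under the block. Among 112 vesicle traffic genes Ap4s1 fell by 2.36 (adjusted p = 0.0535 without AzaC 1) and Snap25 rose, with 5 rises and 3 falls under the block. The shares of solute carrier and vesicle traffic genes called, with or without the block, all lay under those over all genes tested. None of 59 ion channel and receptor genes and none of 44 homeobox genes tested passed (5 and 1 had an unadjusted p under 0.05). Another 63 of 122 and 48 of 92 on the array were too dim to be tested. With the block 3 channel and receptor genes rose and 0 homeobox genes passed. The block's rises were P2rx4 (1.64), Htr5b (at least 2.44) and Gria2 (1.17).

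**Figure D4:**
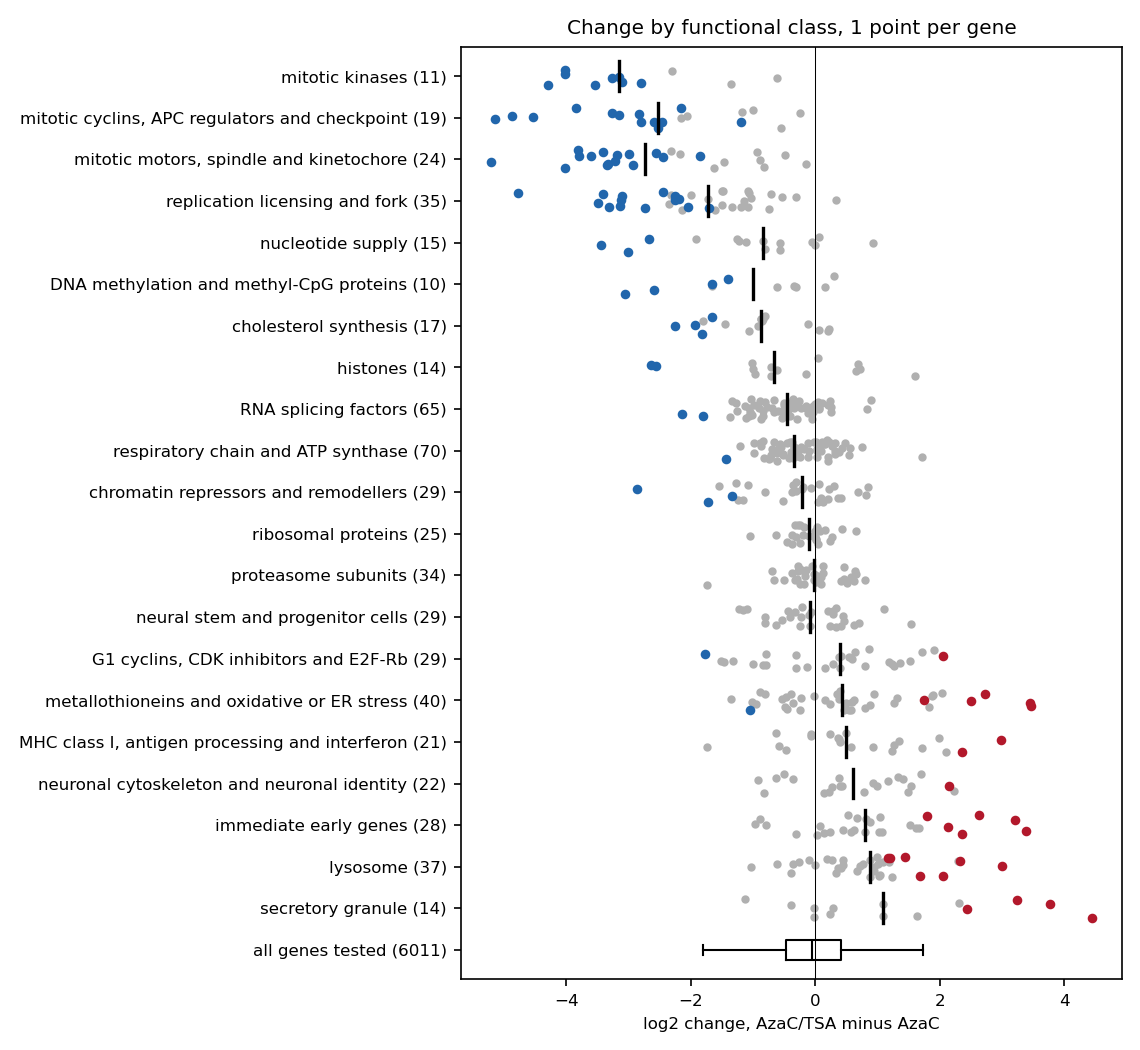
Log2 change of AzaC/TSA minus AzaC by functional class, with 1 point per tested gene (number in brackets), genes that rose in red, genes that fell in blue, others in grey, and a black bar at the class median. The 3 mitotic classes have medians from -3.15 to -2.53 and the secretory granule class 1.09, while the box at the bottom (quartiles and median, whiskers to 1.5 times the quartile range) shows all 6011 genes around -0.05.

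The change was also set beside that with TSA alone, the TSA arrays minus the untreated arrays, which share no array with the AzaC/TSA and AzaC groups but come from the same experiments. Across 7987 probe sets the log2 changes correlated with Pearson's r = 0.751 and Spearman's rho = 0.667, given as a description across probe sets that share these cultures. Setting the change of one experiment against the other comparison's change in the other experiment gave 0.496 and 0.559, and the changes of AzaC/TSA minus AzaC in experiments 1 and 2 correlated with r = 0.546. Of the 223 probe sets called, 222 had the same sign with TSA alone, 123 were larger in the presence of AzaC and 99 smaller, and the median ratio of the change with TSA alone to that in the presence of AzaC was 0.975. The 223 were chosen by their change in the presence of AzaC, which favours larger sizes there. In 55 of them that change is a lower bound, so the sizes are not an even comparison. Mki67 changed by at least -5.14 in the presence of AzaC and at least -5.45 without it, and Scg2 by at least 4.45 and at least 4.31. With no array under the floor, Cdc20 changed by -4.54 in the presence of AzaC and -4.64 without it, Fos by 3.38 and 3.77, and Ctsd by 2.05 and 1.87. Clu rose by 3.63 in the presence of AzaC, while with TSA alone it changed by 4.57.

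The difference of differences, the interaction of AzaC and TSA, was called for 0 of 7987 probe sets in limma's test with or without the experiment as a block (0%), with 142 at an unadjusted p under 0.05 and a smallest adjusted p of 0.290 (0.270 with the block). The median 95% half-width of an interaction was 1.31 on the log2 scale, before any adjustment over the 7987 probe sets. Differences of about 2-fold in the response were thus not detectable for a typical probe set. With the adjustment much larger differences could be missed too, since the -4.87 of Cd4, given below, did not pass. Cd4, the T helper cell coreceptor, had the smallest p and was the exception in sign. It gave 18.9 and 14.5 in AzaC/TSA cells, against 107.8 and 93.1 in AzaC cells, a fall of at least 2.32 on the log2 scale (SE 0.46, adjusted p = 0.0353). In TSA cells it gave 96.9 and 143.3, against 18.1 and 20.2 in untreated cells, a change of at least 2.55. Each compound alone thus gave signals of 93.1 to 143.3 and both together gave signals under the floor, in both experiments, and the interaction of -4.87, which rests on arrays under the floor in both comparisons, had an adjusted p of 0.290. The Cd4 call of AzaC/TSA against AzaC was lost when any single array was left out (0.0566 to 0.152).

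**Figure D5:**
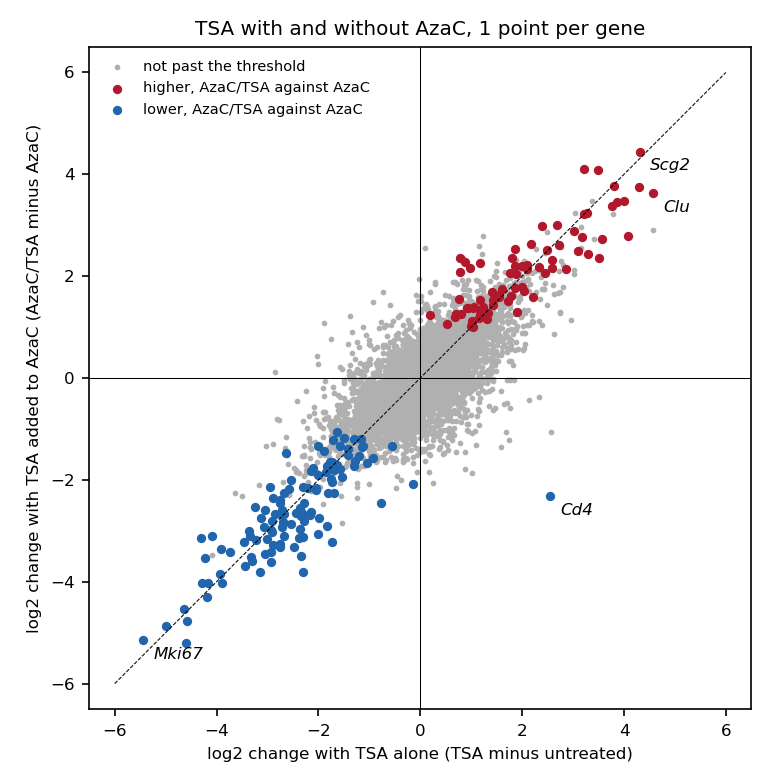
Log2 change of AzaC/TSA minus AzaC (vertical axis) against the change with TSA alone, TSA minus untreated (horizontal axis), with 1 point for each of 6011 genes and the line of equal change dashed. Genes that passed for AzaC/TSA against AzaC are red (76 higher) and blue (115 lower), and Cd4 alone among them lies in a quadrant of opposite signs, at -2.32 and 2.55, both lower bounds of the size of the change.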

How the data were processed

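Neurosphere RNA was hybridised to 8 short-oligonucleotide arrays with 12488 probe sets, 1 intensity per probe set and array. The deposited intensity values are linear, and they show that the authors had brought every array to the same 2%-trimmed mean. The software is not given in the sources used here. After rescaling to exactly that mean, the 66 control probe sets were left out, signals under 10% of it (20) were raised to that floor, log2 was taken, and probe sets with at least 2 of 8 arrays at 25% of it (50) were tested, which left 7987 (64.3%).

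limma 3.58.1 under R 4.3.3 gave group means over all 8 arrays (lmFit, eBayes with an intensity trend, 4 residual degrees of freedom, prior 4.93), with two-sided tests and Benjamini-Hochberg adjustment over 7987 probe sets. Standard errors of log2 changes had a median of 0.41, a 95% half-width of 0.93, and the number of arrays limits the precision. Arrays of one number share an experiment, per the labels. Their deviations from group means correlated at 0.203 to 0.411 in the 6 group pairs. A fit with the experiment as a block, which had 3 residual and 6.71 prior degrees of freedom, was an alternative.

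Genes were represented by their brightest tested probe set over 8 arrays (1044 of 6011 genes had several), and 759 tested probe sets without a single symbol stayed unnamed. Named genes were the 12 largest rises and 12 largest falls that passed and had the same sign in both experiments, up to 4 members per list in order of p, the 6 smallest interaction p, and a fixed list of markers and drug targets. The members, the 32 gene lists and 10 name-based families were chosen with earlier results of these data known. List members named outside this rule (such as Bub1, Ttk, Prdx2, Penk, Gusb, Ids, Jun, Myc, Maff, H2-D1 and B2m) were chosen after their values were seen. Promoter windows came from RefSeq, and 4868 of 6011 genes had one. The fit was tested on simulated data.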

Additional observations from a re-analysis of the deposited data

Results flagged for a closer look

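The response of Cd4 to TSA had opposite signs with and without AzaC. The log2 change was at least -2.32 for AzaC/TSA minus AzaC and at least 2.55 for TSA minus untreated, with the same signs in both experiments, and the interaction of -4.87 rests on arrays under the floor in both comparisons. The interaction was tested in limma and did not pass over all probe sets (adjusted p = 0.290). It passed only without the intensity trend (adjusted p = 0.048). The part that signals near the floor play was not tested.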

How the results depend on the processing

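The count of 223 probe sets became 237 with quantile normalization, 220 with median centring, 223 as deposited, 168 with a floor of 2.5%, 213 with a floor of 20%, 207 with an offset, 113 without a filter, 226 with a filter at 50%, 135 without the intensity trend, 228 with robust eBayes, 45 with only the 2 groups, 744 with the replicate block (pairing by experiment) and 595 with the replicate block and only the 2 groups. Leaving out 1 array gave 48 to 158. No probe set called here changed sign in any of these. In the fits without 1 array or with the block no sign could change, because the 2 groups did not overlap in any of the 223. The interaction count of 0 became 11 without a filter, all with signals at or under 58.4, and 1 (Cd4) without the intensity trend. It was 0 with any array left out, and only the 2 groups give no interaction. Of 69 named calls 20 passed in all 21 alternatives, including Grn, Ctsd, Fos, Scg2, Clu, Top2a, Mki67 and Cdc20. Fewer arrays and fewer degrees of freedom accompany the lower counts; the cause of the other shifts was not tested. With 1 array left in a group, it was assumed to vary like the others and came from 1 experiment only. Dim probe sets limit the falls most: 44 of 134 are lower bounds. Without a filter only 70 of the 223 stayed called, and 41 of the 69 named calls were lost. Among the called probe sets, 22 of 89 rises had no AzaC array at the filter signal of 50. Likewise, 46 of 134 falls had no AzaC/TSA array there.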

Other observations

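Of the called genes outside every list, several follow the classes described above. Aspm and Cip2a, which act in spindle organisation and in keeping mitotic kinase signalling active, fell by 3.60 and 3.70, and Lmnb1 and Tmpo, proteins of the nuclear lamina and inner nuclear membrane, fell by 2.70 and 1.79. Among rises, Per1, a circadian clock gene, gave 153.8 and 115.3 in AzaC/TSA cells, against 32 and 30.8 in AzaC cells (log2 2.08, limma adjusted p = 0.0475). Bex4 rose by 2.14, Ngef, a neuronal guanine nucleotide exchange factor, by 2.88, and Il6st, the shared receptor subunit gp130 of interleukin 6 family cytokines, by 1.38. These genes were chosen after their values were seen.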
